A study of Mus musculus with 6 samples.

Results

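Aorta-gonad-mesonephros (AGM) tissue with 1 working allele of Tph2 was compared with wild-type AGM, gene by gene, in RNA-seq libraries made from E11.5 embryos of the C57BL/6 mouse strain. The tph2+/- group had 2 libraries and the tph2+/+ group had 2, so 4 of the 6 libraries of the study entered the comparison. The remaining 2 libraries, from tph2-/- AGM, were used to estimate the spread and to set their values beside those of tph2+/-. Rows with a gene symbol and a mean of at least 1 RPKM (reads per kilobase of gene, scaled to the size of the library) over the 6 libraries were kept, which gave 12869 genes out of 23446 rows with a symbol. The labels name no treatment and do not describe the Tph2 allele. The labels speak of AGMs from littermates without saying which libraries share a litter, or whether a library held 1 embryo or several. The p-values therefore measure the spread between libraries, which may be technical.

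The AGM surrounds the dorsal aorta, whose endothelium gives rise to the earliest haematopoietic stem cells of the embryo, and it also holds the mesonephros, the gonadal ridge and sympathoadrenal cells. Tph2 encodes tryptophan hydroxylase 2, the rate-limiting enzyme of serotonin synthesis in neurons, and the study asked what its loss does to this blood-forming region. At this age the liver bud, the stomach, the hindlimb and forelimb buds, the somites and the neural tube lie next to the AGM, so markers of these tissues were followed beside those of the AGM itself. In bulk tissue, more cells of a type and more RNA per cell cannot be told apart.

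The RPKM step sizes of low genes gave estimated depths of 45900000 and 44800000 reads for the tph2+/+ libraries and 40300000 and 40800000 for the tph2+/- libraries. At the lower of these depths 1 RPKM is about 40.3 reads per kilobase of gene. Across the tested genes, log2(RPKM + 1) correlated with r = 0.9972 between the tph2+/+ libraries and r = 0.9925 between the tph2+/- libraries. Xist, the RNA of the inactive X chromosome, was at 79.1 and 76.3 RPKM in tph2+/+, at 101 RPKM in tph2+/- replicate 1 and at 0.0916 RPKM in tph2+/- replicate 2. The summed RPKM of 4 Y-linked genes was at most 0.0769 in the first 3 of these libraries and 33.7 in tph2+/- replicate 2, so replicate 2 stood alone in sex among the 4. The same library alone carried heart muscle RNA: Myl7, an atrial myosin light chain, was at 2.65, 2.65, 3.44 and 37.3 RPKM in tph2+/+ replicates 1 and 2 and tph2+/- replicates 1 and 2. Myh6, an atrial myosin heavy chain, was at 1.30, 1.41, 0.995 and 16.8 RPKM in the same order. Gene values below are given in that order of libraries. Both tph2-/- libraries had Y-linked RNA, with sums of 38.6 and 33.3 RPKM, and Xist at 0.059 and 0.114 RPKM. Sex and genotype therefore cannot be told apart fully where tph2-/- values are set beside those of the other groups.

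Tph2 itself was at 0.0497, 0.0764, 0.0472 and 0.0280 RPKM, far under the filter in every library, so its level does not check the genotype labels. Tph1, the other tryptophan hydroxylase, was at 0.0594, 0.0797, 0.0313 and 0.0257 RPKM. Neither gene was tested.

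Of the 12869 genes, 782 (6.08%) had an adjusted p under 0.05 (limma, log2(RPKM + 1)), 531 (4.13%) of them higher in tph2+/- and 251 (1.95%) lower. By at least 2-fold, 104 genes (0.808%) rose and 1 gene (0.00777%), Mid1, fell. The filter, a mean of at least 1 RPKM over all 6 libraries, admits genes near 0 in tph2+/+ through the genotypes where they are high. A tph2+/+ mean under 1 RPKM was found in 51 of the 104 and 112 of the 531. Among them were 6 hepatoblast, 4 megakaryocyte and platelet, 3 limb bud, 2 endoderm, 2 gut mesenchyme and 1 pro-apoptotic gene of the lists below. Such genes had to be higher in tph2+/- or in tph2-/-, so these counts are a description. Of 265 tested genes with a tph2+/+ mean under 1 RPKM, 112 were called higher in tph2+/-. Under quantile normalization 408 genes were higher and 370 lower, a share of 52.4% higher in place of 67.9%, and after a shift of the libraries to equal medians 443 were higher and 330 lower. The median log2 fold change of all tested genes was 0.02 in the deposited scaling, and each of the 782 genes kept its direction under both scalings. In 6710 genes (52.1%) the libraries of the groups did not overlap, 4159 (32.3%) with both tph2+/- libraries above and 2551 (19.8%) with both below, so lack of overlap alone says little about a gene. On the X chromosome 12 of 420 genes rose and 6 fell, against 494 and 237 of 11690 on the autosomes.

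The liver list rose most as a group. Of its 25 hepatoblast genes 22 were tested, 20 were higher in tph2+/- and 0 were lower, with a median log2 fold change of 2.17 against 0.02 for all genes. Their summed RPKM was 165 and 171 in tph2+/+ and 492 and 731 in tph2+/-. The plasma proteins led the list, and the transcription factor Hnf4a, a regulator of hepatocyte genes, rose with them by 1.40 ± 0.121 (SE, adjusted p = 0.000295). Hnf4a had a tph2+/+ mean under 1 RPKM and so was tested through its level elsewhere. The liver progenitor factor Prox1 (0.29, adjusted p = 0.281) and Dlk1 (-0.14, adjusted p = 0.414), which is also expressed widely in embryonic mesenchyme, did not pass.

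Alb, the gene of serum albumin on chromosome 5, is at 90460897 to 90476602 (GRCm38, plus strand), and Afp, of alpha-fetoprotein, lies next to it. The bases before their RefSeq start sites (GRCm38.p6) are shown with that of Serpina1b, of an alpha-1-antitrypsin, because liver promoters of this kind carry sites of the factor HNF1. Capitals mark GTTAAT, the repeated unit of the HNF1 motif, searched on both strands; it overlaps no other motif searched. The windows are chr5:90460620-90460869 (plus strand), chr5:90490464-90490713 (plus strand) and chr12:103738190-103738439 (minus strand), each 250 bases, 5′ to 3′.
Alb: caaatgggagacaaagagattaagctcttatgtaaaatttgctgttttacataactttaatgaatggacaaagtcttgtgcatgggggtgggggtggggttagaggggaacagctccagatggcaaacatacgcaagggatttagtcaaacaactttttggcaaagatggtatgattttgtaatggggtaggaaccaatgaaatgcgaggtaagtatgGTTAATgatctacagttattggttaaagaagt
Afp: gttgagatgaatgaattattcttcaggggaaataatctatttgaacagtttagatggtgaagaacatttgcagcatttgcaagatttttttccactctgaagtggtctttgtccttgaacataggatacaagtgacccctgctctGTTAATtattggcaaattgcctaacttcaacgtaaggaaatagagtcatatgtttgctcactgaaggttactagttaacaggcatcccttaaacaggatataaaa
Serpina1b: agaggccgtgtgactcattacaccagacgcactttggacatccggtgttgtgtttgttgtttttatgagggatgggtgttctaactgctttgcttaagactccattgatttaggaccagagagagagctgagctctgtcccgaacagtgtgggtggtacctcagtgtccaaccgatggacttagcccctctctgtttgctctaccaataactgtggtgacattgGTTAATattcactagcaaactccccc
The unit begins 32, 105 and 26 bases before the start in Alb, Afp and Serpina1b. It was present in the windows of 7 of the 19 hepatoblast genes that had a RefSeq promoter (36.8%), in 3 of 18 limb bud genes (16.7%), in 3 of 20 Hox genes (15%), in 14 of 81 genes that rose by at least 2-fold (17.3%), in 3 of 163 genes that fell (1.84%) and in 328 of 9382 tested genes with a window (3.5%). The motif was chosen after values were seen, and a match is not a site shown to be bound.

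Alb was at 4.80, 4.55, 41.3 and 83.2 RPKM, a log2 fold change of 3.39 ± 0.372 (adjusted p = 0.0282). Both tph2+/- libraries lay far above wild type, with replicate 2 well above replicate 1, and the call was lost in 4 of the 6 fits that left out 1 library (adjusted p up to 0.24). Afp, its fetal counterpart, was at 22.9, 22.4, 135 and 213 RPKM (2.85 ± 0.228, adjusted p = 0.00671). Apoa1, the main protein of high-density lipoprotein, was at 4.04, 4.23, 38.0 and 52.1 RPKM (3.15 ± 0.131, adjusted p = 5.27e-05). Ttr, the carrier of thyroxine and retinol-binding protein, was at 1.10, 0.986, 9.25 and 10.8 RPKM (2.43 ± 0.0827, adjusted p = 9.81e-07). In each of these genes the tph2+/+ libraries were nearly equal and the tph2+/- libraries stood several-fold above them. The tph2-/- libraries were at 77.4 and 71.6 RPKM for Alb and at 11.4 and 11.8 RPKM for Ttr, and 0 of the 22 hepatoblast genes differed between tph2-/- and tph2+/-, against 1.29% of all genes.

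Gene families of secreted liver proteins moved the same way. Of 14 serpins 10 were higher and 0 lower (median 1.27), of 10 coagulation factors 8 and 0 (median 1.56), and of 11 apolipoproteins 7 and 0 (median 0.92). The families share members with the hepatoblast list, among them Serpina6, Fga and Apoa1, so their counts are not separate from it. Some members were tested through their level elsewhere, such as Fga, Fgg and Serpind1, with tph2+/+ means of 0.45, 0.58 and 0.46 RPKM. Serpina6, the corticosteroid carrier, rose by 2.92 and Serpinf2, an inhibitor of plasmin, by 2.60. The fibrinogen chains Fga, Fgb and Fgg rose by 1.81, 2.28 and 1.84. Serpina1b has near-identical copies in mouse between which reads may be split, so its value of 2.70 is uncertain. The copies Serpina1a, Serpina1d and Serpina1e are also among the 10 serpins that were higher. The hepatoblast count depended on the wild-type libraries: without tph2+/+ replicate 1 it was 12 and without replicate 2 it was 13, and Afp and Serpina6 then also missed the threshold (adjusted p up to 0.108 and 0.194). The apolipoprotein count was 4 without either of them, and Fgb missed the threshold without tph2+/+ replicate 1 (adjusted p = 0.0541).

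Genes of the stomach and foregut gave the largest single change. Barx1, a homeobox factor of stomach mesenchyme on chromosome 13 at 48662998 to 48666507 (GRCm38, plus strand), was at 0.336, 0.590, 24.8 and 27.3 RPKM, a log2 fold change of 4.21 ± 0.102 (adjusted p = 1.12e-07). It was close to absent in tph2+/+ and among the clearly expressed genes in both tph2+/- libraries. Of 10 tested genes of gut and stomach mesenchyme, out of 12 listed, 5 rose and 1 fell. Nkx2-5, which marks the pyloric border of the stomach as well as heart, was at 0.0571, 0.0293, 1.77 and 2.94 RPKM (1.66 ± 0.154). It was high in both tph2+/- libraries, including replicate 1, which lacked the heart myosins. Barx1 and Nkx2-5 had tph2+/+ means under 1 RPKM and so were tested through their level elsewhere. Foxf1, a forkhead factor of gut mesenchyme, rose by 1.24 ± 0.0876 (adjusted p = 8.34e-05), and Six2 by 0.95, a call lost without either tph2+/+ library. Of 12 tested endoderm genes, out of 17 listed, 6 rose and 1 fell: the pioneer factors Foxa2 and Foxa1, both under 1 RPKM in tph2+/+ and so tested through their level elsewhere, rose by 1.25 and 0.94, the epithelial adhesion molecule Epcam by 0.64, and Gata6, also a mesoderm gene, fell by 0.55. Gcg, the glucagon gene of pancreatic and gut endocrine cells, was named after its values were seen: it was at 0.0199, 0, 3.93 and 4.06 RPKM. Counts of both lists changed by no more than 1.5 times without any 1 library, apart from the mesenchyme gene that fell, Hand1, which missed the threshold in 5 of those 6 fits.

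**Figure D1:**
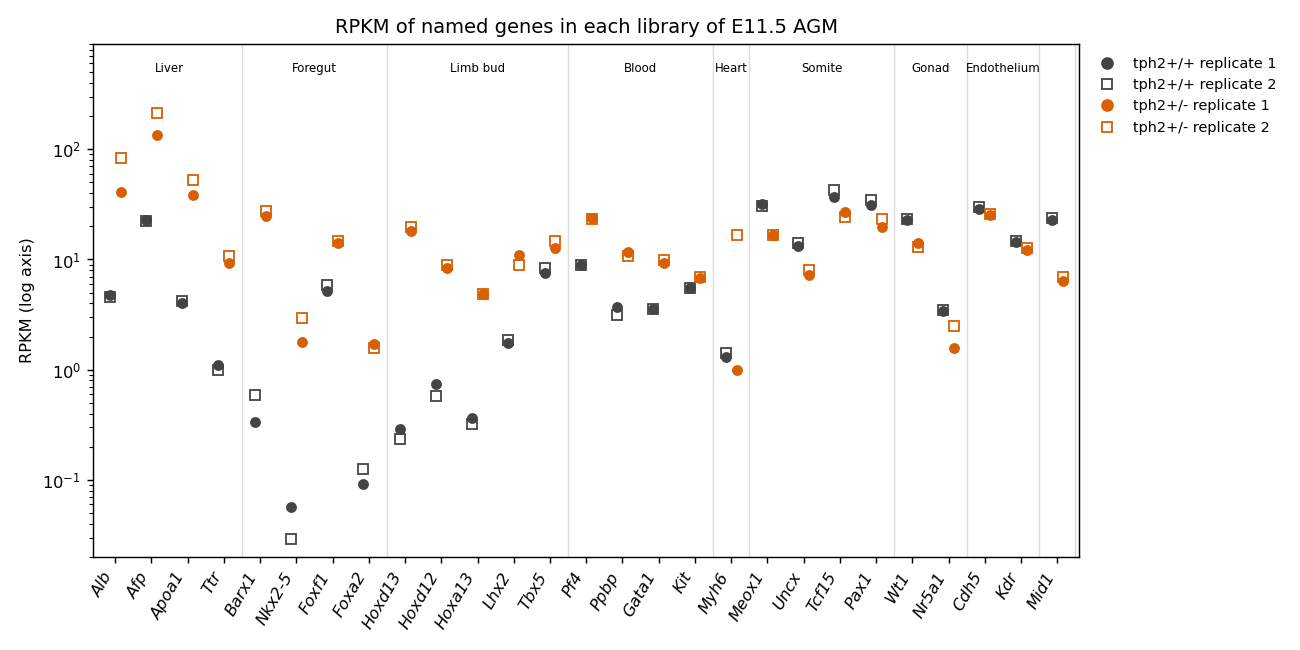
RPKM (log axis) of named genes in each of the 4 libraries, grouped by tissue, with tph2+/+ in grey and tph2+/- in orange, filled circles for replicate 1 and open squares for replicate 2. The liver, foregut and distal limb genes of tph2+/- lie apart from tph2+/+ in both replicates, Myh6 is high in tph2+/- replicate 2 only, and Meox1, Uncx, Tcf15, Pax1, Wt1 and Nr5a1 lie lower in both tph2+/- libraries.

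The limb bud list also rose, with a different relation to the tph2-/- libraries. Of 24 listed genes 23 were tested, 13 rose and 3 fell in tph2+/-, with a median of 0.70. Limb outgrowth depends on LIM homeobox, T-box and Hox factors in the mesenchyme and on signals from the ridge and the posterior margin. Hoxd13, a Hox gene of the digit-forming end of the limb and of the hindgut and genital tubercle, was at 0.289, 0.233, 18.1 and 19.5 RPKM (3.97 ± 0.0929, adjusted p = 1.12e-07). It was near the floor in wild type, so it was tested through its level elsewhere, and close to Barx1 in level in both tph2+/- libraries. In tph2-/- it was at 1.61 and 1.30 RPKM, lower than in tph2+/- by a log2 difference of -3.01 (adjusted p = 1.60e-06). Its promoter window, chr2:74667975-74668224 (plus strand, RefSeq, GRCm38.p6), is shown as a contrast to the CpG-poor liver windows; capitals mark CG.
Hoxd13: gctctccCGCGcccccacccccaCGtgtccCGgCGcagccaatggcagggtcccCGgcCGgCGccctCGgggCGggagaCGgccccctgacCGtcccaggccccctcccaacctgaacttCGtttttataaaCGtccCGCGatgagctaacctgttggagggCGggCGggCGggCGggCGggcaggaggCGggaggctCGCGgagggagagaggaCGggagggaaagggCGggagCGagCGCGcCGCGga
It holds 31 CG pairs, against a median of 12 in the windows of Hox genes and 14 in those of limb bud genes. The median was 4 in the hepatoblast windows, 5 in those of the genes that rose by at least 2-fold and 16 in those of all tested genes.

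Several other limb genes were likewise higher in tph2+/- than in both other genotypes. Of the 23 limb bud genes, 10 were lower and 1 was higher in tph2-/- than in tph2+/-, where 0.544% and 0.746% of all genes were. Lhx2, a LIM factor of the outgrowing limb, was at 1.74, 1.87, 10.9 and 8.83 RPKM (1.95 ± 0.0973) and fell back to 3.85 and 3.78 RPKM in tph2-/- (difference -1.17, adjusted p = 0.000393). Cyp26b1, which is outside the limb bud list and degrades retinoic acid in the distal limb, was at 4.18, 4.52, 14.7 and 11.9 RPKM (1.41 ± 0.0953). It was at 4.80 and 5.14 RPKM in tph2-/- (difference -1.26, adjusted p = 0.000243). Tbx5, the forelimb T-box factor, was at 7.53, 8.40, 12.7 and 14.7 RPKM (0.71 ± 0.0956) and at 2.68 and 3.24 RPKM in tph2-/-, below wild type. Msx2 rose by 1.00, Lmx1b, the dorsal limb factor, by 1.30, and Lhx9 by 1.29. The hindlimb factor Tbx4 was at 2.10, 2.37, 8.48 and 3.27 RPKM, high in only the first of the 2 tph2+/- libraries, and did not pass (adjusted p = 0.327); the tph2-/- libraries were at 7.00 and 8.14 RPKM. The 3 members that fell were Tbx3, also a gene of body-wall mesenchyme, by 0.53, Meis2 by 0.32 and Meis1 by 0.26; without either tph2+/+ library, or without tph2+/- replicate 2, Tbx3 was the only one. Gdf5, a joint-forming ligand outside that list, rose from 0.742 and 0.732 to 3.86 and 3.97 RPKM (adjusted p = 2.07e-05). Its tph2+/+ mean was under 1 RPKM, so it was tested through its level elsewhere.

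Hox genes moved by paralog number. Numbers 10 to 13 act in the hind end of the body and the distal limb, and 7 of the 9 tested rose with 0 lower (median 1.86). Of these, Hoxa13, Hoxd12 and Hoxd13 had tph2+/+ means of 0.34, 0.66 and 0.26 RPKM. They were tested through their level elsewhere and so had to be higher in another genotype. Numbers 4 to 9 pattern the trunk, and 12 of 19 fell with 0 higher (median -0.39). Of the 6 tested of numbers 1 to 3, 1 fell (median -0.04). This split was made after the values were seen. Hoxa13 was at 0.364, 0.323, 4.87 and 4.81 RPKM (2.12 ± 0.102), and at 0.275 and 0.427 RPKM in tph2-/- (difference -2.11, adjusted p = 2.56e-05). Hoxd12 rose by 2.54, Hoxd11 by 1.86 and Hoxd10 by 1.19, a falling series along the HoxD cluster. Hoxa11 rose by 2.52 and its antisense transcript Hoxa11as by 3.17; the libraries do not mark strand, so their reads cannot be told apart. In the HoxC cluster Hoxc10 was at 17.1, 19.2, 16.1 and 7.42 RPKM and did not pass, while Hoxc9 fell by 0.79 and Hoxc8 by 0.82. Hoxb9 was at 11.27, 11.46, 6.37 and 5.31 RPKM (-0.86 ± 0.0812) and at 12.13 and 12.99 RPKM in tph2-/- (difference 0.99, adjusted p = 0.000358). Both tph2+/- libraries were therefore the lowest of the 6 for Hoxb9. The TALE partners of Hox proteins followed the trunk genes, with 5 of 17 lower and 0 higher, and 2 and 3 lower without tph2+/+ replicates 1 and 2 and 3 without tph2+/- replicate 2. The count of numbers 4 to 9 that fell was 7 without tph2+/+ replicate 2 and 7 without tph2+/- replicate 2; Hoxa10 (0.95) missed the threshold without either tph2+/+ library.

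**Figure D2:**
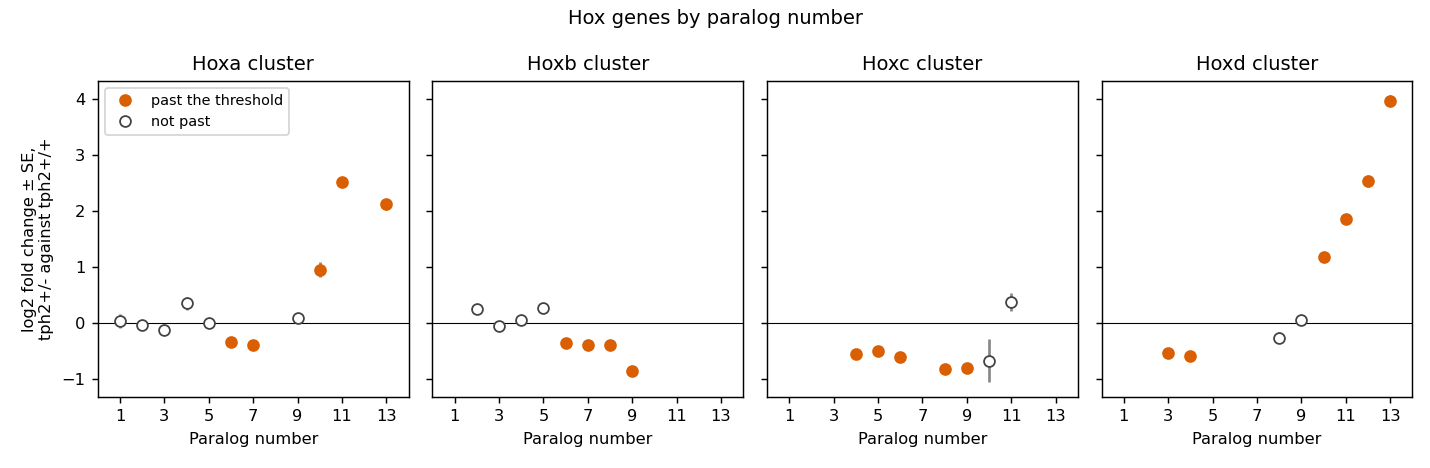
Log2 fold change ± SE of each tested Hox gene (vertical axis) against its paralog number (horizontal axis), 1 panel per cluster, with filled points for genes past the adjusted p of 0.05. In HoxD the values run from 1.19 for Hoxd10 to 3.97 for Hoxd13, Hoxa10, Hoxa11 and Hoxa13 are at 0.95, 2.52 and 2.12, and most genes of numbers 4 to 9 lie below 0, down to -0.86 for Hoxb9.

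Blood genes rose in the platelet, red cell and progenitor lists, by smaller steps than liver genes. Of 16 tested megakaryocyte and platelet genes 13 rose and 1 fell (median 0.90). Of the 13, 9 had a tph2+/+ mean of at least 1 RPKM. The remaining 4, F2rl2, Gp1ba, Gp5 and P2rx1, were tested through their level elsewhere and so had to be higher in another genotype. Pf4, platelet factor 4, was at 8.95, 8.91, 23.9 and 23.1 RPKM (1.30 ± 0.0599, adjusted p = 5.68e-06), and Ppbp, its neighbour on chromosome 5, was at 3.72, 3.12, 11.7 and 10.8 RPKM (1.47 ± 0.0835). Replicates agreed closely within both genotypes. The platelet tubulin Tubb1 rose by 1.14, the receptor Treml1 by 1.21 and the integrin chain Itga2b, which also marks the first haematopoietic cells, by 0.99. The member that fell was Vwf (-0.51 ± 0.0681, adjusted p = 0.00244), which endothelium makes as well.

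Of 19 tested erythroid regulators and membrane genes 12 rose and 0 fell (median 0.65). Gata1, the erythroid and megakaryocytic GATA factor on the X chromosome, was at 3.56, 3.58, 9.34 and 9.80 RPKM (1.21 ± 0.0886), and Klf1, which switches on the adult globin genes, was at 8.18, 9.11, 17.9 and 23.2 RPKM (1.15 ± 0.11). Among haem enzymes 6 of 13 rose and 0 fell, with Cpox at 0.83. Of 10 globin genes 1 rose, Hbq1b (0.64, adjusted p = 0.0454), while the embryonic Hbb-y was at 5011, 4374, 5323 and 7870.2 RPKM and did not pass (adjusted p = 0.337); globin copies are alike and their reads may be split. The erythroid count was 4 without tph2+/+ replicate 1, 7 without tph2+/+ replicate 2, 8 without either tph2-/- library and 17 without tph2+/- replicate 1. The haem count ranged from 2 without either tph2+/+ library to 9 without tph2+/- replicate 1, and Cpox missed the threshold in 4 of the 6 such fits (adjusted p up to 0.12). Hbq1b passed in 1 of them, without tph2+/- replicate 1, where 5 globin genes rose, Hbb-y among them (adjusted p = 0.00237).

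Of 20 haematopoietic transcription factors 10 rose and 1 fell (median 0.38), and of 12 surface genes 6 rose and 0 fell (median 0.32). Mecom, a regulator of stem cell self-renewal that is also expressed in kidney and limb, was at 5.08, 4.94, 16.5 and 11.3 RPKM (1.29 ± 0.148). Ikzf1, a lymphoid and progenitor factor, was at 1.88, 1.90, 4.05 and 5.63 RPKM (1.00 ± 0.118), Lmo2 rose by 0.86 and Spn, the leukosialin of emerging blood cells, by 1.16. Spn had a tph2+/+ mean under 1 RPKM and so was tested through its level elsewhere. Runx1, Gata2 and Kit were given whatever their values. Runx1, required for the endothelial to haematopoietic transition, was at 1.15, 1.26, 1.25 and 1.86 RPKM (0.21 ± 0.125, adjusted p = 0.417), and Gata2 was at 6.73, 6.26, 5.42 and 4.27 RPKM (-0.36 ± 0.105, adjusted p = 0.0833). Kit, the stem cell factor receptor, was at 5.54, 5.56, 6.86 and 6.87 RPKM (0.26 ± 0.0638, adjusted p = 0.045), a small rise whose call was lost in each of the 6 fits that left out 1 library. Gfi1 was under the filter. Of 13 macrophage genes 1 rose, the granule enzyme gene Mpo (1.16), and 4 rose without tph2+/- replicate 1. The factor count was 6 without either tph2+/+ library, and Mecom then missed the threshold (adjusted p up to 0.069). The blood genes and the liver genes above were high in the same tph2+/- libraries, and the part of either in the other was not tested.

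**Figure D3:**
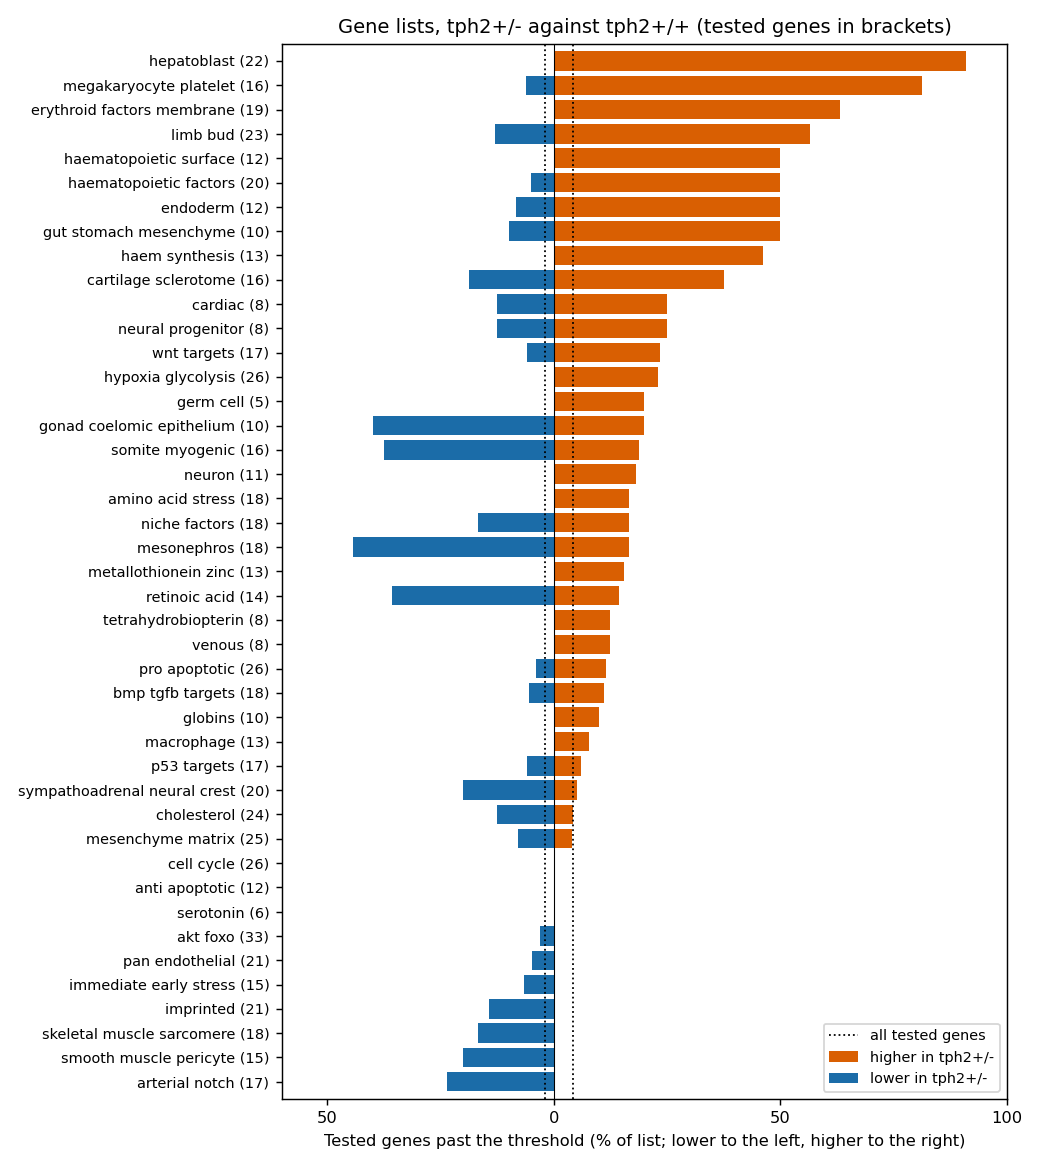
Share of the tested genes of each list (in brackets after its name) past the adjusted p of 0.05, higher in tph2+/- to the right and lower to the left, in percent, with dotted lines at the shares of all tested genes (4.13% and 1.95%). The hepatoblast, megakaryocyte and erythroid lists reach furthest to the right, and the mesonephros, gonad and somite lists furthest to the left.

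Lists of trunk tissues of the AGM region and its flanks held more called genes that fell than rose. The genes that fell were low in the libraries in which the liver, stomach and limb markers above were high. The part of neighbouring tissue in either was not tested. Of 16 somite and myogenic genes 6 fell and 3 rose (median -0.31), the latter Tbx18 (0.80), Meox2 (0.62) and Lbx1. Meox1, a homeobox factor of the somites, was at 32.0, 30.8, 16.7 and 16.7 RPKM (-0.87 ± 0.0538, adjusted p = 3.76e-05), and Uncx, of the posterior part of each somite, was at 13.4, 14.2, 7.27 and 8.08 RPKM (-0.77 ± 0.086). Meox1 in tph2-/- lay between the other genotypes at 21.5 and 22.4 RPKM (difference from tph2+/- 0.37, adjusted p = 0.0102). Pax3, of the muscle-forming dermomyotome, fell by 0.67, Tcf15 by 0.61 and the muscle determination gene Myf5 by 0.62, while Myod1, which commits cells to muscle, was at 21.5, 23.6, 17.7 and 22.8 RPKM and did not pass (adjusted p = 0.484). Pax1, of the sclerotome, fell by 0.60. Of 18 sarcomere genes 3 fell and 0 rose (median -0.39): troponin C gene Tnnc2 was at 51.6, 50.8, 32.5 and 37.3 RPKM (-0.54 ± 0.0672). The list median was -0.59 in tph2+/- replicate 1 and -0.15 in replicate 2, and 13 of 18 were lower without replicate 2, the library with the heart myosins. Of 8 tested heart genes 2 rose and 1 fell, and 6 rose and 1 fell without replicate 1, with medians of -0.06 in replicate 1 and 0.95 in replicate 2. Without a tph2+/+ library the somite count was 4 or 3 and the sarcomere count 1; Pax1 and Pax3 then missed the threshold (adjusted p up to 0.205 and 0.1), and Myf5 missed it without tph2+/+ replicate 2 (adjusted p = 0.106).

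In the gonadal ridge 4 of 10 tested genes fell and 2 rose. Wt1, the factor of the coelomic epithelium and nephrogenic mesenchyme, was at 22.8, 23.1, 13.96 and 12.97 RPKM (-0.73 ± 0.0649, adjusted p = 0.000351), and Amhr2, the receptor of anti-Müllerian hormone, was at 3.79, 3.66, 2.28 and 1.82 RPKM (-0.64 ± 0.0959). Nr5a1, the master factor of steroidogenic cells, was at 3.39, 3.46, 1.57 and 2.48 RPKM (-0.56 ± 0.134, adjusted p = 0.0423), lower in both libraries with a wide spread. The members that rose were Lhx9, shared with the limb list, and Tcf21. Among 18 mesonephros genes 8 fell and 3 rose (median -0.12, with 9 above and 9 below 0). Gata3, of the nephric duct, fell by 0.63 and Emx2 by 0.52, while Sall1 rose by 1.08. Pax2, which defines the nephric lineage, was at 1.03, 1.10, 0.622 and 0.388 RPKM (-0.46 ± 0.111, adjusted p = 0.044), and at 1.543 and 1.499 RPKM in tph2-/-, above tph2+/- by 0.75 (adjusted p = 0.0118). In the sympathoadrenal list 4 of 20 fell and 1 rose (median -0.09, with 9 above and 11 below 0). Dbh, which makes noradrenaline from dopamine, was at 11.8, 11.9, 6.38 and 6.09 RPKM (-0.83 ± 0.0689, adjusted p = 0.000242). Th was at 4.08, 3.79, 2.62 and 2.93 RPKM (adjusted p = 0.058, and 0.0324 under quantile normalization). Hand2, also a limb gene, rose by 0.60. Foxd1, of stromal cells of the kidney and other organs, fell by 0.62. These counts were sensitive to single libraries: without tph2+/+ replicates 1 and 2 in turn, 2 and 1 mesonephros genes, 2 and 3 gonad genes and 2 and 1 sympathoadrenal genes were lower, without tph2+/- replicate 1 there were 5, 3 and 3, and without tph2+/- replicate 2 there were 3, 5 and 2. The calls of Pax2 and Nr5a1 were lost in 5 of the 6 such fits, with adjusted p up to 0.246 and 0.203, and those of Amhr2, Gata3 and Tcf21 in at least 1.

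Vessel genes showed small differences, few of which passed. Of 21 pan-endothelial genes 18 had a log2 fold change below 0, as had 5334 of all 12869 tested genes. The list median was -0.14, against 0.02 for all genes, and 1 passed, Vwf. With a library left out the list median lay between -0.18 and -0.13. Cdh5, VE-cadherin, was at 28.7, 29.7, 25.3 and 26.1 RPKM (-0.17 ± 0.0529, adjusted p = 0.095), and Kdr, a VEGF receptor, was at 14.5, 14.6, 12.2 and 12.6 RPKM (-0.21 ± 0.0564, adjusted p = 0.0606); the latter passed under quantile normalization and after a shift to equal medians (adjusted p = 0.0416 and 0.0368). In the arterial and Notch list 4 of 17 fell and 0 rose. Gja5, the arterial connexin, was at 13.1, 13.7, 8.41 and 10.2 RPKM (-0.49 ± 0.0898), a call lost without either tph2+/+ library. The Notch target genes Hey1, Hey2 and Heyl fell by 0.24, 0.50 and 0.43; with 1 library left out, the call of Hey1 was lost in all 6 fits (adjusted p from 0.0521 to 0.226), that of Hey2 in 3 (up to 0.19) and that of Heyl in 1 (0.124). Of 9 Notch ligands and receptors 0 passed. The count of the arterial and Notch list depended on the library left out. Its median was -0.19 with all libraries, -0.24 and -0.12 without tph2+/+ replicates 1 and 2, and -0.14 without tph2+/- replicate 1. Of 15 smooth muscle and pericyte genes 3 fell: Tagln (-0.50 ± 0.0501), an actin-binding protein whose gene overlaps Pcsk7 on the other strand, led them, and 6 fell without tph2+/- replicate 2 1 and 2 without tph2+/+ replicates 1 and 2 and 2 without tph2+/- replicate 1. Cxcl12, the chemokine that holds stem cells in their niche, was at 51.8, 49.7, 35.7 and 36.5 RPKM (-0.48 ± 0.052, adjusted p = 0.000911), and at 47.7 and 46.5 RPKM in tph2-/-, above tph2+/- by 0.38 (adjusted p = 0.0081). The tph2+/- libraries were the lowest of the 6 for Cxcl12.

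Genes of serotonin handling and of cell survival, which bear on the study's question, gave few calls. Of 25 serotonin genes 6 were tested and 0 passed. Ddc, the decarboxylase that completes serotonin synthesis, was at 5.66, 6.15, 4.57 and 5.70 RPKM (-0.18, adjusted p = 0.345), and Maoa, which degrades serotonin, was at 4.22, 3.94, 3.88 and 4.18 RPKM (-0.01, adjusted p = 0.952). The serotonin transporter Slc6a4 was under the filter at 0.475, 0.333, 0.622 and 0.758 RPKM. Pcbd1, which recycles the cofactor of tryptophan hydroxylase, rose by 0.43 (adjusted p = 0.00457). Akt1 (0.03, adjusted p = 0.885) and its target Foxo1 (-0.04, adjusted p = 0.855) did not pass, and of 33 genes of the AKT and FOXO pathway 1 fell (Cdkn1a) and 0 rose. Of 26 pro-apoptotic genes 3 rose and 1 fell. Pmaip1, the BH3-only protein NOXA, was at 0.295, 0.269, 5.34 and 2.30 RPKM (1.83 ± 0.299, adjusted p = 0.026). It was high in both tph2+/- libraries with a wide gap between them, and at 0.554 and 0.768 RPKM in tph2-/-. It reached the filter only through tph2+/-, where it is high, so it had to differ. Its difference between tph2-/- and tph2+/- was -1.46 with an adjusted p of 0.125. Bid rose by 0.42 and Dapk1 fell by 0.32, while Bbc3 (0.26, adjusted p = 0.0886) and Bcl2l11 (-0.17, adjusted p = 0.187), direct FOXO targets that encode PUMA and BIM, did not pass. Cdkn1a, the cell cycle inhibitor p21, fell by 0.28 at an adjusted p of 0.0499. Fasl was listed at 0 in the first 3 libraries and at 0.0253 RPKM in the last. Of 12 anti-apoptotic and 26 cell cycle genes 0 passed. Without either tph2+/+ library 0 pro-apoptotic genes rose, and without either tph2-/- library 1 rose. Pmaip1 missed the threshold in 4 of these 6 fits (adjusted p up to 0.224), Bid and Dapk1 in 3, Pcbd1 in 1, and the call of Cdkn1a was lost in 5.

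Neural genes rose in part. Of 8 tested neural progenitor genes 2 rose and 1 fell, Nes (-0.35, a call lost in 3 of the 6 fits without 1 library), and of 11 neuron genes 2 rose, Dcx (0.55) and Map2 (0.53), with a median of 0.06; Dcx missed the threshold without tph2+/+ replicate 2 (adjusted p = 0.06). Sox2, of neural progenitors and foregut, was at 1.37, 1.31, 2.29 and 2.51 RPKM (0.54 ± 0.0814) and at 6.53 and 6.67 RPKM in tph2-/- (difference 1.16, adjusted p = 0.000172). Elavl3, a pan-neuronal RNA-binding protein, was at 0.956, 0.719, 0.774 and 1.02 RPKM in the 4 libraries and at 3.83 and 4.12 RPKM in tph2-/- (difference 1.39, adjusted p = 0.000311). All 11 neuron genes were higher in tph2-/- than in tph2+/-, against 0.746% of all genes. Elavl3 averaged under 1 RPKM in tph2+/+ and in tph2+/-, so it was tested through its level in tph2-/-. Of the 11 neuron genes 2 had a tph2+/- mean under 1 RPKM, so this count is a description.

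**Figure D4:**
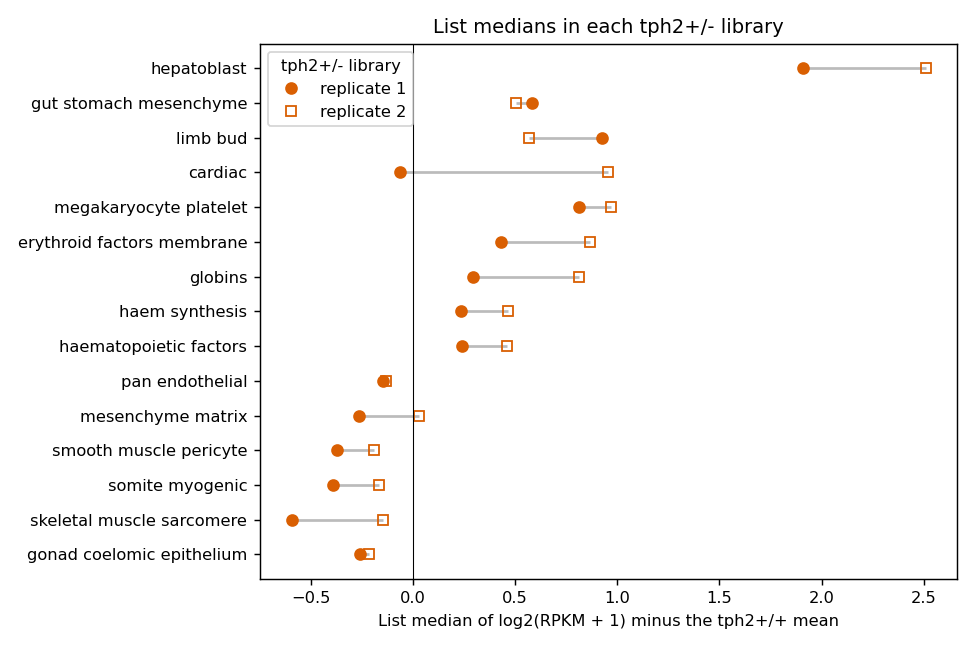
Median over each list of log2(RPKM + 1) in a tph2+/- library minus the tph2+/+ mean, with a filled circle for replicate 1, an open square for replicate 2 and a line joining them. The hepatoblast medians are 1.91 and 2.51, the limb bud medians 0.93 and 0.57, and the heart medians lie on either side of 0.

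Signalling and metabolic lists held mixed changes. In the retinoic acid list 5 of 14 fell and 2 rose, or 4 and 4 without tph2+/- replicate 2: the receptor gene Rarb fell by 0.47, the retinol transporter gene Stra6 by 0.40, the binding protein gene Crabp1 by 0.38 and the synthetic enzyme gene Aldh1a2 by 0.34, against rises of Cyp26b1 and the liver carrier Rbp4 (2.55). Without either tph2+/+ library 3 fell, Aldh1a2 no longer among them. Of 26 hypoxia and glycolysis genes 6 rose and 0 fell, with Ldha, lactate dehydrogenase A, at 0.30, which missed the threshold without either tph2+/+ library; there were 0 and 2 without tph2+/+ replicates 1 and 2 and 1 without tph2+/- replicate 2. The metallothioneins Mt1 and Mt2, which bind zinc and copper, rose by 0.97 and 1.06, and were higher still in tph2-/- (differences 0.45 and 0.49, adjusted p = 0.00353 and 0.0441). In the cartilage list 6 rose and 3 fell of 16, led among collagens by Col9a3 (0.95); 2 and 3 rose without tph2+/+ replicates 1 and 2, and 3 without tph2+/- replicate 2. Of 21 imprinted genes 3 fell, Peg3 (-0.49), Peg10 (-0.54) and Mest (-0.31), and 0 rose; without either tph2+/+ library Peg3 alone fell. Of 188 solute carriers 13 rose, but 1 and 3 without tph2+/+ replicates 1 and 2 and 4 without tph2+/- replicate 2. Of 76 cytosolic ribosomal protein genes 2 rose, of 44 complex I genes 0 passed, and of 283 zinc finger genes named Zfp 1 rose (Zfp524) and 1 fell (Zfp462), all under the background of 6.08%. Small rises were common, with 75 of the 76 and 41 of the 44 above 0, as were 7535 of all 12869 tested genes. The ribosomal and complex I medians were 0.095 and 0.084, against 0.024 for all genes. Under quantile normalization they were 0.026 and 0.065, against -0.013.

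Mid1 stood apart among genes that fell. It encodes a microtubule-associated ubiquitin ligase and lies on chromosome X at 169685199 to 170005736 (GRCm38, plus strand). Its level was 22.9, 23.7, 6.34 and 6.99 RPKM (-1.67 ± 0.0636, adjusted p = 1.80e-06), and 17.8 and 18.4 RPKM in tph2-/- (difference from tph2+/- 1.32, adjusted p = 2.56e-05). Both tph2+/- libraries were low, 1 with high Xist and 1 without, and the remaining 4 libraries lay between 17.8 and 23.7 RPKM. The cause of the fall of Mid1 was not tested. Its exons overlap gene models of the other strand, so its reads may be shared. The next largest falls were Meox1, Hoxb9, Grin2c (-0.86), an NMDA receptor subunit gene, Wnt16 (-0.85) and Dbh. Tbx1, a T-box factor of pharyngeal and other mesoderm, fell by 0.78 and Thbs4, a matrix protein of tendon and muscle, by 0.78.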

How the data were processed

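The authors deposited 1 table of RPKM values for 6 libraries, 1 column each, matched to samples by the number in the sample description. Per the labels' protocols, about 1 µg of RNA from E11.5 AGM went into each library with a kit that does not mark strand, read as paired 150 bp reads. TopHat2 2.0.9, HTSeq 0.5.3p9 and the build GRCm38 are named in the submitters' processing notes; the gene models and the RPKM formula are not given in the sources used here. Of 56826 rows, 33353 cDNA clone rows and 27 rows with dates for symbols were left out, since both lack a usable gene symbol.

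From these values, log2(RPKM + 1) of genes that reached 1 RPKM on average was fitted with limma 3.58.1 (R 4.3.3, empirical Bayes with trend and robust options) over 3 genotype groups of 2 libraries, with 3 residual degrees of freedom. Adjusted p-values are Benjamini-Hochberg values over the 12869 genes, and a gene was called under 0.05. On that scale low genes show less than their full change. The tph2-/- libraries share in the estimate of spread, and their comparison with tph2+/- shares the tph2+/- libraries with the main one. The procedure was tested on simulated data. Depth was estimated from the steps between the values of low genes, where 38.5% to 40.2% of values fell on whole reads at the best depth, too few to recover counts; a count test was therefore not run.

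Genes were named by rule: the 15 largest rises and the 15 largest falls without overlap between groups, leaving out predicted models; up to 4 called members of each list or family; fixed markers of tissues and of the study's question; and every Hox gene. Dlk1, Gcg, Hbb-y, Hnf4a, Lmo2, Myl7, Prox1 and Tcf15 were named after their values were seen. The members and the 44 lists and 39 families were chosen with earlier results of these data known, lists share genes, and no set test was run. Of 840 list entries 836 matched a row. Coordinates and overlaps are from GENCODE (GRCm38) and promoter windows from RefSeq (GRCm38.p6). Alternatives covered scaling, pseudocount, filter, libraries in the fit, variance model, a term for Y-linked RNA, a replicate block and leaving out each library. Results for some genes are not reported here.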

Additional observations from a re-analysis of the deposited data

Results flagged for a closer look

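Some genes under the filter of 1 RPKM, and so outside the comparison, were listed at 0 in both tph2+/+ libraries and had signal in both tph2+/- libraries. Among 6949 such low rows with any signal, 17 had at least 0.2 RPKM in both tph2+/- libraries with 0 in both tph2+/+ libraries, 10 of them not small RNAs; in the reverse direction there were 5, of which 0 were not small RNAs. No fold is given against a group at 0. Evx2, the homeobox gene beside Hoxd13, was at 1.53 RPKM or more in tph2+/- and at 0.108 and 0.107 RPKM in tph2-/-. Nkx2-1, of thyroid, lung and forebrain, was at 1.15 RPKM or more, with 0.351 and 0.267 RPKM in tph2-/-. The gut peroxidase gene Gpx2 was at 0.743 RPKM or more. Pdx1, of pancreas and duodenum, was at 0.438 RPKM or more, and Kcnk16, a potassium channel gene of pancreatic islets, at 0.338 RPKM or more. Hoxc12 was at 0.294 RPKM or more, with 2.45 and 2.27 RPKM in tph2-/-.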

How the results depend on the processing

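All 782 calls kept their direction in each of the 15 alternative fits. Leaving out 1 library gave between 325 and 805 genes past the threshold, 237 to 616 higher and 82 to 269 lower: 325 without tph2+/+ replicate 1, 339 without tph2+/+ replicate 2, 805 without tph2+/- replicate 1 and 662 without tph2+/- replicate 2. Over the gene lists and families, members past the threshold were 273 with all libraries, 144 and 152 without tph2+/+ replicates 1 and 2 and at most 305, without tph2+/- replicate 1. Of 110 named genes that were called, 73 stayed called in all 6 of these fits. A lone library is assumed to vary like the other groups. With a pseudocount of 0.1, 187 genes in place of 105 changed by at least 2-fold, and with no filter on low values 155 in place of 251 were lower, over 19818 genes. A term for Y-linked RNA gave 662 genes (396 higher, 266 lower), 493 of them among the 782; it nearly equals leaving out tph2+/- replicate 2, the only tph2+/- library with Y-linked RNA, and sex and genotype cannot be told apart fully here. Values that changed sign were all of genes not called: Elavl3 (-0.15 under quantile normalization, -0.048 with the Y-linked term, -0.048 to 0.14 without 1 library), Hbb-y (0.00 under quantile normalization), Akt1 (-0.0053 with the Y-linked term, -0.039 to 0.11 without 1 library), Maoa (-0.059 to 0.030), Foxo1 (-0.14 to 0.063), Myod1 (-0.33 to 0.016), Myh6 (-0.24 with the Y-linked term, -0.24 to 2.92) and Xist (0.37 with the Y-linked term, -6.17 to 0.37). The cause was not tested.

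Replicate numbers in the labels did not pair the libraries: deviations from the group means correlated with r = 0.033 between tph2+/+ and tph2+/-, 0.17 between tph2+/+ and tph2-/- and 0.073 between tph2+/- and tph2-/-. A fit with the replicate block gave 908 genes (598 higher, 310 lower), 753 of them among the 782. Alb then had an adjusted p of 0.0662.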
